A study of Mus musculus with 2 samples.

Results

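Immediate early genes are transcribed within minutes of a stimulus, without new protein synthesis, and most of their mRNAs and proteins are short-lived. The 39 genes described here were taken as a fixed list of immediate early and stress-response genes out of 27998 genes in the files, and all 39 were present in both matrices. The list was chosen with earlier results of these data known. They were followed gene by gene and as a summed level per cell, in droplet single-cell RNA libraries of mouse quadriceps, a limb muscle, and diaphragm, the respiratory muscle. Both tissues came from C57BL/6J mice with no treatment named, 10 mice were used for the experiment, and cells of several animals were combined into 1 library per tissue. Each tissue was minced and digested with collagenase B and dispase II at 37 °C for 1 h, layered on a density gradient that was spun for 45 min, and sorted for viable cells by light scatter. The labels gave neither the age of the mice nor the order or date of processing, so tissue and library cannot be told apart, and no difference below has a replicate check or a test.

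Many of the listed genes encode transcription factors. FOS and JUN family proteins pair to form AP-1, EGR proteins are zinc-finger activators, and NR4A proteins are orphan nuclear receptors. Others end the response: Zfp36 speeds the decay of mRNAs with AU-rich elements, Dusp1 removes phosphates from MAP kinases, and Socs3 blocks cytokine signalling. In tissue work the same genes are known to be switched on by enzymatic dissociation at warm temperature, a step that both libraries shared.

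Barcodes were placed in cell classes by the raw counts of unique molecular identifiers (UMIs) of marker genes, none of which is a listed gene. Each class carries the ending "-like", as nothing but these markers defines it. Fibro-adipogenic progenitors (FAPs) are the collagen-producing mesenchymal cells between muscle fibres, and FAP-like cells made up 2517 of the 5010 barcodes kept for quadriceps and 2160 of the 2430 kept for diaphragm. Their median depth was 10298 UMIs in quadriceps and 12374 UMIs in diaphragm, and their median mitochondrial share was 4% and 4.17%. Smooth muscle-like cells numbered 1185 and 44, B-like cells 210 and 44, and T-like cells 105 and 57. In quadriceps alone at least 20 cells were also found for satellite-like (181), Schwann-like (152), tenocyte-like (101), NK-like (74), macrophage or monocyte-like (64) and endothelial-like (56) cells. All markers of each class that the files held had UMIs in that class, and 4 listed markers were not among the genes analysed here (Ighm, Ighd, Trac and Trbc2). Tenocyte-like cells, themselves collagen-producing, had more FAP marker UMIs (66263 CPM) than FAP-like cells (39979 CPM). In the classes that should lack FAP markers, these stood at 0.526% to 6.67% of their FAP level, highest in Schwann-like cells. Smooth muscle-like cells had a median mitochondrial share of 17.3% in quadriceps and 18.5% in diaphragm. Only 5 barcode sequences occurred in both libraries.

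Levels below are UMIs scaled to 1000000 UMIs per class (CPM), and folds are log2 differences of CPM + 1. UMIs count transcript molecules, so CPM was not divided by gene length. A gene was called higher or lower when the fold was at least 2 and the higher group had at least 50 CPM and 20 UMIs. Intervals are 95% intervals and, like all counting limits here, cover counting error only, since each group is 1 library. Intervals of a fold are for the plain ratio of counts, without the added 1.

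Promoter sequence is shown for 5 of the listed genes, each of which holds at least 1 of the motifs marked below. They were picked after the windows were seen, and windows without a marked motif, such as those of Jun and Atf3, are not shown. Shared regulation of these 5 genes was not tested. RefSeq windows on GRCm38.p6, from 250 bases before to 50 bases after the start, were found for 30 of the 39 genes, with Cyr61 under its newer symbol Ccn1. No window was matched for Fosl1, Egr1, Egr3, Ier2, Klf10, Myc, Ctgf, Trib1 or Nfkbiz. The lines below give the 250 bases before the start, 5′ to 3′ on the gene's strand, with capitals for the cAMP response element TGACGTCA, the CArG box (the site that serum response factor binds) or the TATA motif TATAAA. Fos lies on the plus strand (chr12:85473640-85473889), and the others on the minus strand: Btg2 (chr1:134079156-134079405), Dusp1 (chr17:26508473-26508722), Ppp1r15a (chr7:45526269-45526518) and Zfp36 (chr7:28379229-28379478).
Fos: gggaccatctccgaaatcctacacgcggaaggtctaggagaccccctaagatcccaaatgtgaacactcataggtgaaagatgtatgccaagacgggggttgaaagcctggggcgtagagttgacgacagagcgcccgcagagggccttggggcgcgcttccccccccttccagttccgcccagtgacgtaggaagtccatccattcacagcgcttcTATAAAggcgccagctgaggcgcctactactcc
Btg2: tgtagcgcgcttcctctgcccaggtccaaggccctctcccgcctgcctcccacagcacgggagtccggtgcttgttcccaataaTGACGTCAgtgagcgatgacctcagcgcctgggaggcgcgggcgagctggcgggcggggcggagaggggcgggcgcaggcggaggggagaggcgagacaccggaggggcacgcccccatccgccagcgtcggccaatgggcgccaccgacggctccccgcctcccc
Dusp1: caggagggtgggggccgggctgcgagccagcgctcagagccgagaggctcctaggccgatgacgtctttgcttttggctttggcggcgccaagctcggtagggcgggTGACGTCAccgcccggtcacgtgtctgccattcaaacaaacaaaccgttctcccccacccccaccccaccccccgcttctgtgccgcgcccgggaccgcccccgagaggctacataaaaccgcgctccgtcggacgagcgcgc
Ppp1r15a: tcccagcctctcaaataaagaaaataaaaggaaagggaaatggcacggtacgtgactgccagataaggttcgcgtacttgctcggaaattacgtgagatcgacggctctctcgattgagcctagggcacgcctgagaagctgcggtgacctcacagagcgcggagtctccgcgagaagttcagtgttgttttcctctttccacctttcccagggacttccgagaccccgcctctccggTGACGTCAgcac
Zfp36: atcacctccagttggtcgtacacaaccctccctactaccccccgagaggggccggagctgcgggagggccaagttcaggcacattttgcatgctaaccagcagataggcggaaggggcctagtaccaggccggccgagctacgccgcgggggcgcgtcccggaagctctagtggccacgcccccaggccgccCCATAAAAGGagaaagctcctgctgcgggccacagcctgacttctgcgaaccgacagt

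The element TGACGTCA, searched on both strands, was present in the windows of 4 of the 30 genes, namely Btg2, Dusp1, Maff and Ppp1r15a. That is 13.3% of them, while 2.03% of 27025 genes with a window held it. A CArG box was present for Egr2 and Zfp36, 6.67% against 1.81% of all genes. The AP-1 motif TGANTCA was found for Csrnp1 and Zfp36l1, 6.67% against 8.97%. The EGR motif GCGTGGGCG was found for Maff alone, 3.33% against 0.707%, and the STAT motif TTCNNNGAA for 5 genes (Csrnp1, Maff, Sgk1, Socs3 and Zfp36), 16.7% against 9.55%. TATAAA was present for 9 genes, among them Fos and Cyr61, which is 30% against 15.7% of all genes. For Junb and Ppp1r15a, also among the 9, the 250 bases before the start held none, so the match reached past the start. These matches are descriptions of short windows, not binding sites, and elements farther from the start were not searched.

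FAP-like cells of diaphragm carried the listed transcripts at several times the level of those of quadriceps. At 1000 UMIs per cell, the 39 genes gave a median of 5 UMIs per quadriceps cell (quartiles 3 and 8) and 21 UMIs per diaphragm cell (quartiles 12 and 32). Before thinning, the median share of a cell's UMIs was 0.504% in quadriceps and 2.17% in diaphragm. The distributions overlapped: 2.26% of quadriceps FAP-like cells (57 cells) reached the diaphragm median, and 9.54% of diaphragm cells (206 cells) were at or below the quadriceps median. Summed over cells, the level was 6579 CPM (interval 6548 to 6610) in quadriceps and 23436 CPM (23378 to 23494) in diaphragm, a log2 difference of 1.83.

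**Figure D1:**
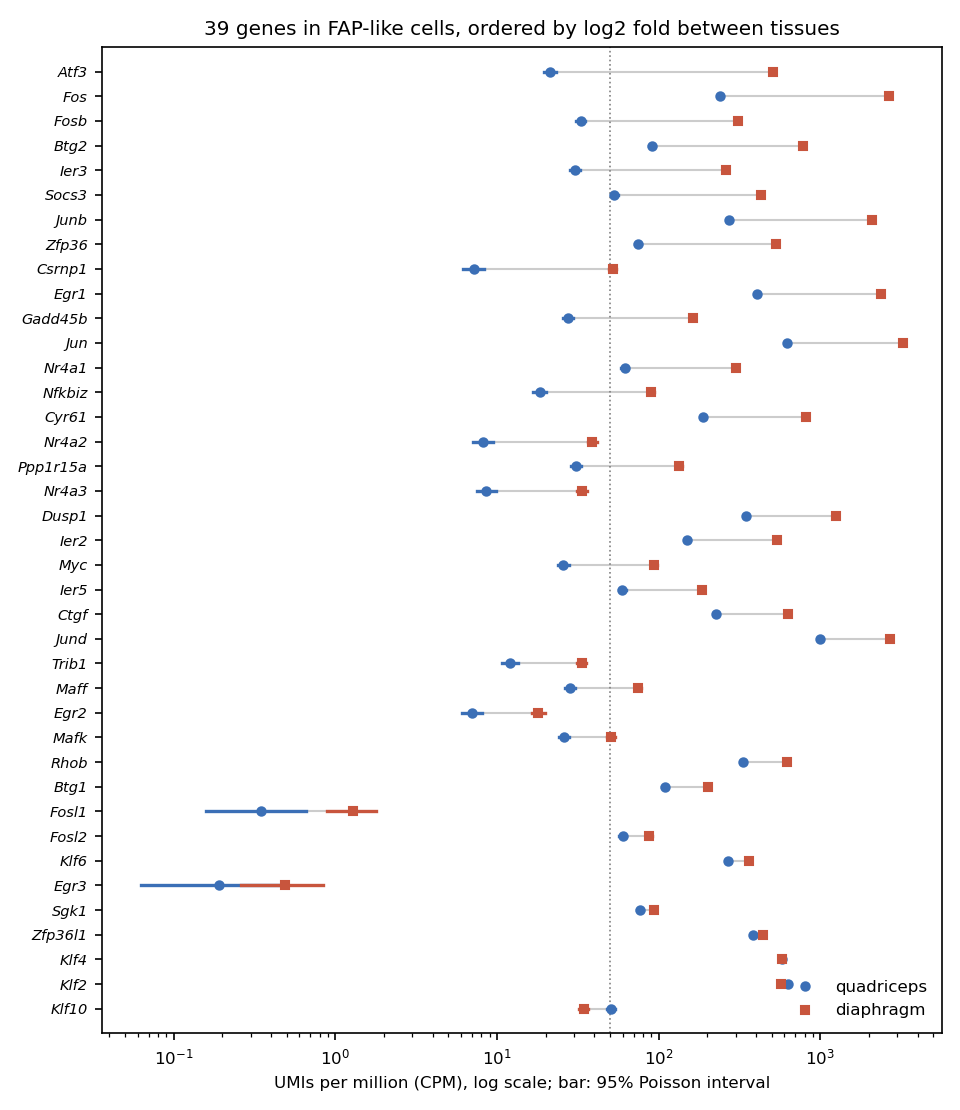
Level of each of the 39 genes in FAP-like cells of quadriceps (blue circles, 2517 cells) and diaphragm (red squares, 2160 cells), in CPM on a log axis, with 95% Poisson intervals and the 50 CPM floor dotted. The genes run from Atf3, with the largest log2 difference (4.51), to Klf10 (-0.55), and the symbols of Klf4 lie on top of each other.

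Of the 39 genes, 23 were called higher in diaphragm, 0 were called lower, 10 lay within 2-fold and 6 were under the floor in both tissues. Across the 3316 genes tested, 3.68% were called higher and 2.99% lower. The median log2 difference over all 39 genes was 1.83, while that over all genes tested was -0.10. Ranked by fold among the tested genes, 2 of the 10 leading genes, 8 of the 20, 16 of the 50 and 23 of the 100 were listed genes. As the list was chosen with earlier results of these data known, these counts and ranks describe it and are no independent check.

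Among the AP-1 subunits, Fos (ENSMUSG00000021250, protein-coding, chr12:85473890-85477273 on mm10) had 241 CPM in quadriceps and 2675 CPM in diaphragm, a log2 difference of 3.47 (3.44 to 3.51). The share of FAP-like cells with a Fos UMI at 1000 UMIs was 10.1% (exact binomial 8.98 to 11.4) in quadriceps and 64.9% (62.8 to 66.9) in diaphragm. Fosb went from 32.9 to 308 CPM (3.19). The other FOS genes behaved differently: Fosl2 stood at 59.9 and 87.8 CPM (0.54), within 2-fold, and Fosl1 had 9 UMIs in quadriceps and 34 in diaphragm, far under the floor. Of the JUN genes, Junb had 272 and 2087 CPM (2.93). Jun (ENSMUSG00000052684, protein-coding, chr4:95049034-95052222), with the highest CPM of the list in diaphragm FAP-like cells, had 624 and 3269 CPM (2.39). Jund, which many resting cells express, started at 998 CPM, the top level in quadriceps, and reached 2684 CPM (1.43). The JUN family thus differed in the inverse order of its quadriceps levels.

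Egr1 was the leading EGR gene, with 408 CPM in quadriceps and 2369 CPM in diaphragm (log2 2.53). At equal depth 20.2% of the quadriceps cells had a UMI of it, and 73.9% of the diaphragm cells. Egr2 (7.04 and 18 CPM) and Egr3 (5 and 13 UMIs) were under the floor. Atf3 (ENSMUSG00000026628, protein-coding, chr1:191170296-191218039), a stress-induced factor of the ATF/CREB family, had the largest difference of all listed genes, 21.4 against 507 CPM (4.51, interval 4.45 to 4.69), and ranked 4 among the genes tested. Cells with an Atf3 UMI were 1.47% in quadriceps (1.04 to 2.02) and 28.3% in diaphragm (26.4 to 30.3). The small MAF genes moved less, with Maff at 28.3 and 74.7 CPM (1.37) and Mafk at 26.1 and 51 CPM (0.94). Myc had 25.8 and 93.5 CPM (1.82).

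Of the nuclear receptors, Nr4a1 had 61.9 and 301 CPM (2.26), while Nr4a2 (8.23 and 39 CPM) and Nr4a3 (8.61 and 33.7 CPM) stayed under the floor. Their fitted log2 differences were 2.12 and 1.85. Csrnp1, a nuclear protein, had 7.19 CPM in quadriceps and 52.1 CPM in diaphragm (2.70), just past the floor. The Krüppel-like factors formed the group that did not differ by 2-fold. Klf4 had 581 and 579 CPM, Klf2 631 and 574 CPM (-0.14), Klf6 269 and 363 CPM (0.43) and Klf10 51 and 34.4 CPM (-0.55). Klf4 was seen at equal depth in 36.9% of quadriceps and 35.1% of diaphragm cells.

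Among the genes that dampen the response, Zfp36 had 74.4 and 532 CPM (2.82), Socs3 53.2 and 428 CPM (2.98) and Dusp1 349 and 1258 CPM (1.85). Nfkbiz, which modulates NF-kappaB targets, had 18.4 and 90.1 CPM (2.23), and Ier3 had 30.6 and 261 CPM (3.05). Ppp1r15a, which returns eIF2 alpha to its active state after stress, had 30.9 and 134 CPM (2.08). Not called were Zfp36l1, a relative of Zfp36, at 386 and 445 CPM (0.20), and Trib1, which was under the floor (12.1 and 33.5 CPM). Among the growth arrest genes, Btg2 had 91.5 and 787 CPM (3.09) and Gadd45b 27.4 and 164 CPM (2.53), while Btg1 stayed within 2-fold at 109 and 202 CPM (0.89). Ier2 (151 and 539 CPM, 1.83) and Ier5 (59.8 and 186 CPM, 1.62) were also called.

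The secreted matricellular genes Cyr61 and Ctgf, known targets of YAP and of serum response factor, had 187 and 820 CPM (2.13) and 226 and 635 CPM (1.48). The GTPase gene Rhob had 332 and 626 CPM (0.91) and the kinase gene Sgk1 76.9 and 93.4 CPM (0.28), both within 2-fold. Genes with low or moderate quadriceps levels and steep differences (Atf3, Fosb, Ier3, Gadd45b) thus stood beside genes that were abundant in both tissues and nearly level (Klf2, Klf4, Zfp36l1).

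The difference was present at each depth and mitochondrial share examined. Within FAP-like cells of 0 to 2.5% mitochondrial UMIs, the median summed level per 1000 UMIs was 5 in quadriceps (197 cells) and 29 in diaphragm (66 cells). It was 5 and 23 at 2.5 to 5%, 4 and 14 at 5 to 10%, and 3 and 19 above 10%. By depth, cells of 1000 to 5000 UMIs had medians of 4 and 19, and those over 15000 UMIs had 6 and 22. Every bin of diaphragm lay above every bin of quadriceps, and in diaphragm the level fell from the lowest mitochondrial bin to the third.

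Genes that act around the listed ones were counted in the same FAP-like comparison. Over all 3316 genes tested there, 3.68% were called higher and 2.99% lower. Of 10 upstream kinases and transcription factors past the floor, 0 were called in either direction, with a median log2 of -0.05 and Egfr lowest at -0.93. With so few genes, a count of 0 is near the share of all genes. Of 22 other immediate early and feedback genes past the floor, 7 were higher and 0 lower, led by Gadd45g (130 and 417 CPM, 1.68), Ccnl1 (83.3 and 256 CPM, 1.61) and Gem (106 and 317 CPM, 1.57). Secreted and delayed response genes were higher in 10 of 13, among them the hyaluronan synthase Has1 (14.6 and 153 CPM, 3.30) and the chemokine Cxcl1 (45.1 and 318 CPM, 2.79). Heat shock genes were higher in 10 of 14, led by Dnajb1 (83.3 and 496 CPM, 2.56), Hspb1 (316 and 1837 CPM, 2.54) and Hspa1b (764 and 4136 CPM, 2.44). None of these 4 lists held a gene called lower in diaphragm, beside the 2.99% of all genes tested.

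Across single FAP-like cells thinned to 1000 UMIs, some of the listed genes varied together, as a description over cells that share a library and a depth. Pearson's r of log1p values was 0.42 for Fos with Egr1 in quadriceps (2517 cells), and 0.45 for Junb with Egr1 and 0.44 for Fos with Jun in diaphragm (2160 cells). Over pairs of listed genes seen in at least 10% of cells, the mean r was 0.085 for 91 pairs in quadriceps and 0.106 for 300 pairs in diaphragm. With the sum of the other listed genes, r was 0.38 and 0.58 for Fos, 0.39 and 0.56 for Egr1 and 0.36 and 0.54 for Junb, in quadriceps and diaphragm. Ctgf (0.08 and 0.04) and Zfp36l1 (0.08 and 0.11) had low r. So had Klf10 (-0.01 in both), which was seen in only 4.89% and 3.94% of the thinned cells. Sparse counts limit r, and Fos too was seen in fewer cells of quadriceps (10.1%) than of diaphragm (64.9%). Of 1178 genes considered, those outside the list with the highest r to the summed level in both tissues included the heat shock genes Hspa1b (0.38 and 0.32), Hspa1a (0.38 and 0.28) and Hspb1 (0.24 and 0.27). The lowest were mitochondrial transcripts, such as mt-Co3 (-0.13 and -0.19).

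Smooth muscle-like cells, the contractile cells of vessel walls, differed between the tissues as FAP-like cells did. The median per 1000 UMIs was 6 in quadriceps and 26 in diaphragm, where only 44 cells were available (interval of the median 18 to 33). The summed level differed by log2 1.98. Called higher in diaphragm were 28 of the 39 genes and called lower 0, beside 4.61% and 1.7% of all genes tested. Fos had 936 CPM in quadriceps and 4871 CPM in diaphragm (2.38), the highest level of any listed gene in any class. Junb (201 and 2189 CPM, 3.44), Egr1 (105 and 1622 CPM, 3.93) and Socs3 (11.2 and 371 CPM, 4.93) differed more. Free FAP RNA at the level of the FAP markers in these diaphragm cells would give 17 CPM of Egr1 and 19.2 CPM of Fos, beside the 1622 and 4871 CPM seen. The source of these UMIs was not tested. Klf2 (116 and 1222 CPM, 3.38) and Klf4 (68.5 and 549 CPM, 2.98), which were level in FAP-like cells, also differed here, while Ctgf was level (913 and 788 CPM, -0.21).

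**Figure D2:**
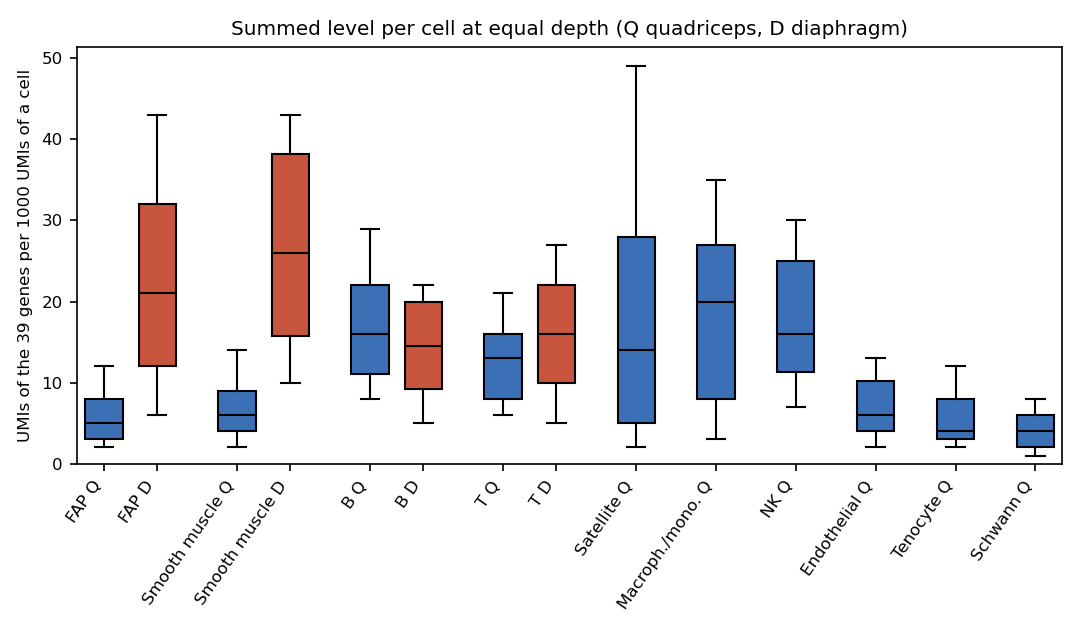
UMIs of the 39 genes per 1000 UMIs of a cell by class, in quadriceps (blue, Q) and diaphragm (red, D), with the median, quartiles and, as whiskers, the 10th and 90th percentiles over cells. FAP-like and smooth muscle-like cells rise from medians of 5 and 6 in quadriceps to 21 and 26 in diaphragm, while B-like and T-like boxes overlap between the tissues.

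Lymphocytes did not share a difference of that size. B-like cells had a median of 16 per 1000 UMIs in quadriceps and 14.5 in diaphragm, and their summed level was lower in diaphragm by log2 -0.38 (-0.44 to -0.33). T-like cells had medians of 13 and 16 and a log2 difference of 0.30 (0.24 to 0.35). In B-like cells 2 genes were called higher and 5 lower, beside 4.01% and 11.8% of all genes tested, and 17 were under the floor. The higher ones were Atf3 (25.9 and 159 CPM, 2.58) and Nr4a1 (170 and 373 CPM, 1.12). The lower ones were Jun, Ppp1r15a, Klf6, Klf2 and Btg2. In T-like cells 10 were higher and 1 lower, beside 14.4% and 4.25% of all genes, and 11 were under the floor. Atf3 was again the steepest (9.22 and 269 CPM, 4.72). The median log2 of the listed genes past the floor was -0.24 in B-like and 0.39 in T-like cells. Over all genes tested it was -0.21 and 0.27, so these medians lay near those of all genes.

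For Jun the direction turned with the class, as it also did for Btg2, Ppp1r15a, Klf2 and Klf6. Diaphragm B-like cells had 398 CPM of Jun, from 95 UMIs, and quadriceps B-like cells 2218 CPM, a log2 difference of -2.48. In T-like cells the levels were 640 and 1522 CPM (-1.25). FAP-like (2.39) and smooth muscle-like cells (2.26) went the other way. Junb showed no such turn, being at 2383 and 2015 CPM in B-like cells of diaphragm and quadriceps (0.24) and at 2861 and 1406 CPM in T-like cells (1.02). Whether the folds differ between classes could not be tested with 1 library per tissue.

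**Figure D3:**
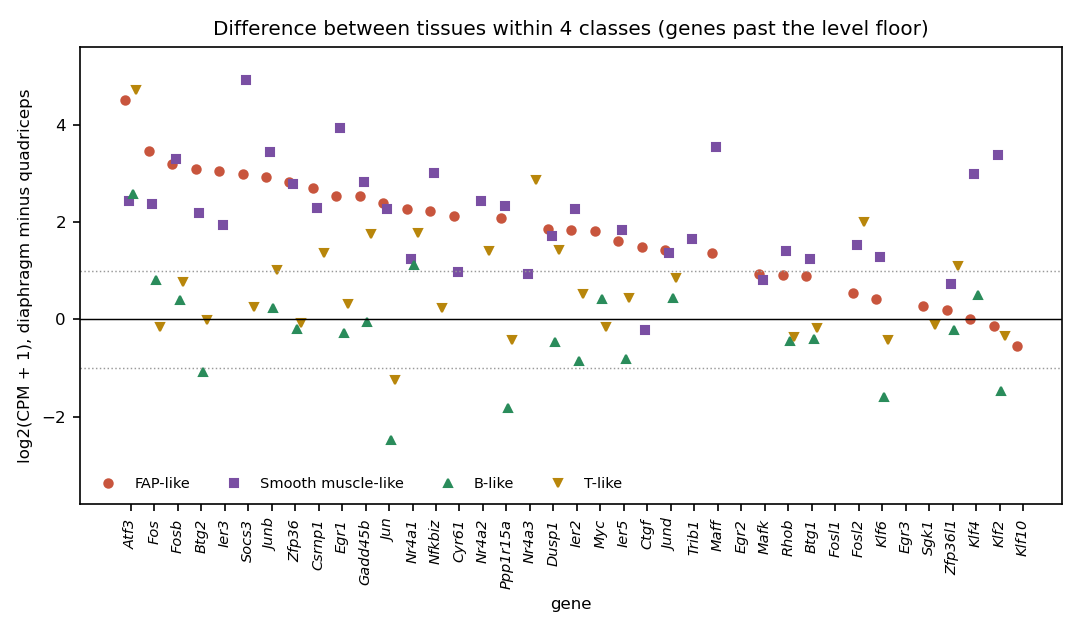
Log2 difference of CPM + 1, diaphragm minus quadriceps, for each listed gene in FAP-like, smooth muscle-like, B-like and T-like cells, where the gene passed the floor, with dotted lines at 2-fold. FAP-like and smooth muscle-like points lie mostly above 1, while B-like points spread around 0 with Jun lowest at -2.48.

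Within quadriceps, the summed level split the classes into a low and a high set. FAP-like, tenocyte-like (median 4 per 1000 UMIs), Schwann-like (4), smooth muscle-like (6) and endothelial-like cells (6) were low. Satellite-like (14), T-like (13), B-like (16), NK-like (16) and macrophage or monocyte-like cells (20) were high. The quartiles of satellite-like cells, the muscle stem cells, were widest, at 5 and 28. Of the 181 satellite-like cells, the 21 with at most 5% mitochondrial UMIs had a median of 34. The median's interval of satellite-like cells (12 to 19) overlapped those of the other high classes, while that of T-like cells (11 to 14) lay below those of B-like (15 to 18) and macrophage or monocyte-like cells (15 to 22).

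Satellite-like cells had the highest Jun level of any class (4148 CPM), with Fos at 2878 and Junb at 2416 CPM. Against quadriceps FAP-like cells 17 genes were higher and 5 lower, beside 11.3% and 23.6% of all genes tested. Egr1 reached 2292 CPM there, near its level in diaphragm FAP-like cells, while it was at most 169 CPM in the other quadriceps classes apart from FAP-like and tenocyte-like cells (278 CPM). These cells had a median mitochondrial share of 7.09%.

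Immune classes carried a different mix. Macrophage or monocyte-like cells had 20 genes higher and 5 lower than FAP-like cells (20.2% and 31% of all genes), with Jun (2737 CPM), Junb (1778 CPM) and Fos (1575 CPM) leading, and Atf3 at 621 CPM. NK-like cells had 19 higher and 4 lower (20.8% and 34.3%), led by Jun (2235 CPM), Klf2 (1789 CPM) and Btg1 (1745 CPM). Their Nr4a2 level of 689 CPM was the highest of any class. B-like cells had 17 higher and 7 lower (20.8% and 38.3%), with Klf2 (2237 CPM), Jun (2218 CPM) and Btg1 (2181 CPM) on top. T-like cells had 16 higher and 6 lower (16.6% and 44.1%), with Btg1 (1764 CPM), Klf2 (1721 CPM) and Jun (1522 CPM) on top. Btg1 and Klf2 are both known for keeping lymphocytes quiescent. Egr1, in contrast, was 86.8 CPM in B-like and 70.1 CPM in T-like cells.

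Cyr61 and Ctgf were lowest in the immune classes. In quadriceps, Ctgf had 1668 CPM in tenocyte-like, 913 CPM in smooth muscle-like and 226 CPM in FAP-like cells, against 10.7 CPM in B-like cells. In diaphragm B-like cells it had 8.38 CPM from 2 UMIs, where free FAP RNA at the FAP marker level would give 6.05 CPM. In diaphragm T-like cells, Cyr61 had 6.04 CPM beside 6.3 CPM from the same reckoning. Each of these lymphocyte levels in diaphragm rested on 2 UMIs and stood near that reckoning. For Ctgf in quadriceps B-like cells the reckoning gave 1.99 CPM, below the 10.7 CPM seen. The source of these UMIs was not tested.

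Smooth muscle-like and Schwann-like cells, with low sums, still had single genes above their FAP-like level. Against FAP-like cells of quadriceps, smooth muscle-like cells had 10 genes higher and 7 lower, beside 18.1% and 31.3% of all genes. Their leading genes were Fos (936 CPM), Ctgf (913 CPM) and Jund (860 CPM), and Atf3 stood at 273 CPM against 21.4 CPM. Schwann-like cells, the glia of nerve fibres, had 6 higher and 11 lower, beside 20.3% and 21.9%, with 12 under the floor. Their count of higher genes was near the share of all genes. Egr2, the factor that drives myelination, had 235 CPM there and at most 17.8 CPM in every other quadriceps class shown. Nr4a2 had 415 CPM, and the leading genes were Jun (606 CPM), Jund (583 CPM) and Nr4a2. Their Egr1 level of 56.7 CPM stood beside 27.2 CPM from free FAP RNA at the marker level. Endothelial-like cells were led by Klf2 (2191 CPM), which blood flow is known to induce, Klf4 (678 CPM) and Jund (584 CPM), and tenocyte-like cells by Ctgf, Cyr61 (876 CPM) and Jund (800 CPM).

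In diaphragm the order of classes turned. Smooth muscle-like cells had 9 genes higher and 3 lower than FAP-like cells (20.4% and 31.9% of all genes), led by Fos, Jun (2485 CPM) and Jund (2228 CPM). B-like cells had 3 higher and 15 lower (16.7% and 44.7%), and T-like cells 7 higher and 10 lower (20.6% and 35.7%). Under the floor were 9 genes in B-like and 5 in T-like cells. The median log2 of the listed genes past the floor was -0.99 in B-like and -0.43 in T-like cells. Over all genes tested it was -0.76 and -0.33, so these counts and medians lay near those of all genes. The B-like summed level was log2 -0.80 below that of FAP-like cells (-0.85 to -0.75), while in quadriceps it was 1.41 above (1.39 to 1.44). Jund (2865 CPM), Junb (2383 CPM) and Btg1 (1638 CPM) led in diaphragm B-like cells, and Junb (2861 CPM), Jund (1858 CPM) and Btg1 (1565 CPM) in T-like cells.

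**Figure D4:**
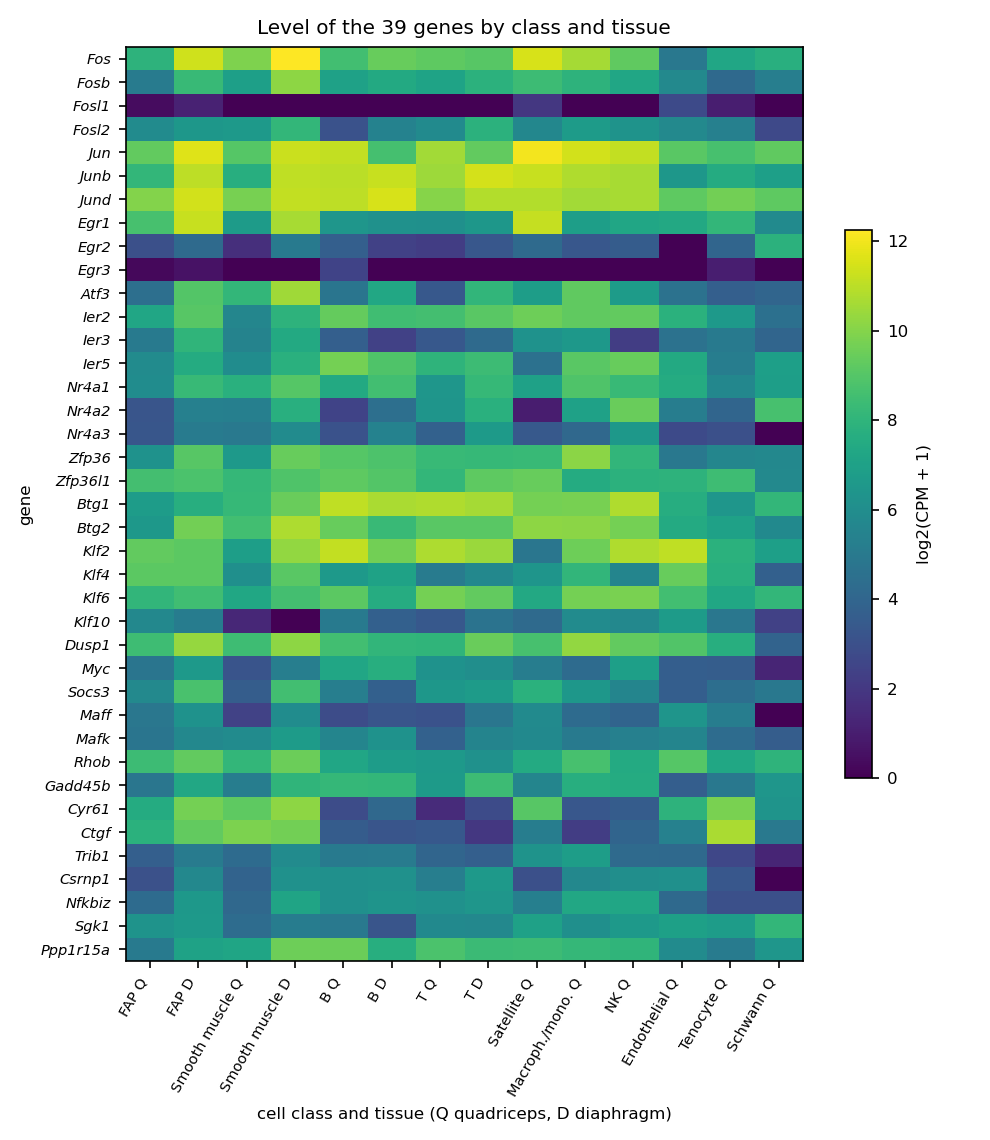
Level of each of the 39 genes, as log2(CPM + 1) in colour, in the classes of quadriceps (Q) and diaphragm (D) with at least 20 cells. Fos, Jun, Junb and Egr1 are bright in diaphragm FAP-like and smooth muscle-like and in quadriceps satellite-like cells, and Egr2 stands out in Schwann-like cells.

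FAP-like cells were then split by UMIs of subset genes, none of which is a listed gene. Sets were defined by Dmkn and Sbsn, by Stmn4, Cmah and Fam167a, by Prg4, Clu and Meox1, by Cxcl14 and Hsd11b1, by Gdf10, Sfrp1 and Col6a5, by Has1 and Tnfaip6, and by Tnmd. The tissue difference ran through all of them. The summed level was higher in diaphragm by log2 1.33 (Stmn4 set) to 2.08 (Has1 set) in the 7 sets, and by 1.74 in cells of none of the 7. The Has1 set held only 7 quadriceps cells and the Dmkn set only 9 diaphragm cells. Cells that passed more than 1 set numbered 293 in quadriceps and 458 in diaphragm. They were kept out of every set but counted among the other FAP-like cells below, which can therefore carry a set's defining genes.

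**Figure D5:**
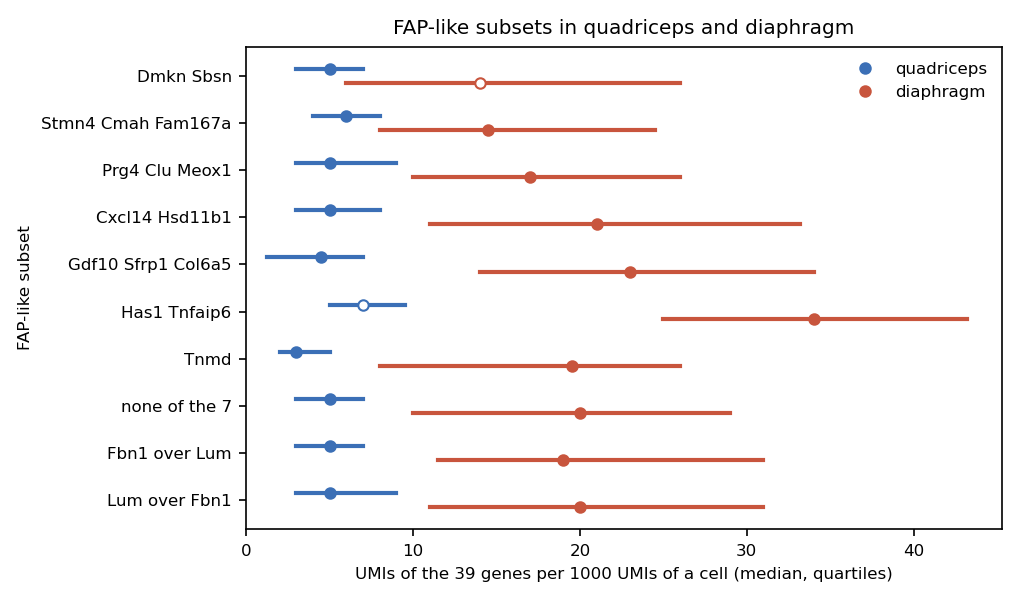
UMIs of the 39 genes per 1000 UMIs of a cell in FAP-like subsets of quadriceps (blue) and diaphragm (red), as median (point) and quartiles (line) over cells, with open points for sets under 20 cells. Quadriceps medians run from 3 to 7, and diaphragm medians from 14 to 34, with the Has1 Tnfaip6 set highest.

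In diaphragm, the Has1 Tnfaip6 set (136 cells) had the highest level, a median of 34 per 1000 UMIs against 20 in the other FAP-like cells. Both of its defining genes belong to the secreted response list above, so the set is not independent of the response. Its summed level was higher by log2 0.60 (0.59 to 0.61), with 10 genes higher and 0 lower, beside 2.54% and 1.55% of all genes tested. The steepest were Myc (312 against 77.3 CPM, interval of log2 1.87 to 2.15), Trib1 (110 against 27.8 CPM, 1.95) and Socs3 (1277 against 365 CPM, 1.80). Fos was not among the 10. The set's median mitochondrial share was 3.42%.

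The Stmn4 set was low for part of the list in both tissues. In quadriceps (167 cells) 7 genes were lower and 1 higher than in other FAP-like cells, beside 4.77% and 3.17% of all genes. Fos (54.4 against 255 CPM, -2.21), Ctgf (55.5 against 239 CPM, -2.09) and Junb (93.9 against 286 CPM, -1.60) were lowest, and Klf2 was higher (1228 against 585 CPM, 1.07). The set's median of 6 per 1000 UMIs was still not below the 5 of the other cells. In diaphragm (38 cells) 7 were lower and 0 higher, beside 4% and 3.28%, with Socs3 (90.6 against 435 CPM, -2.25), Gadd45b (46.2 against 166 CPM, -1.82) and Zfp36 (163 against 540 CPM, -1.72) lowest. Btg2, Ctgf and Sgk1 were lower in both tissues.

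The Dmkn Sbsn set of quadriceps (126 cells) had 7 genes lower and 1 higher, beside 7.12% and 5.47%. Ctgf (32.5 against 239 CPM, -2.84), Btg2 (13.4 against 96.5 CPM, -2.76) and Nr4a1 (12.1 against 65.1 CPM, -2.34) were lowest, and Nfkbiz was higher (63 against 15.5 CPM, 1.95). The Prg4 set was marked by Ctgf in both tissues, at 390 against 188 CPM in quadriceps (1.05) and 1154 against 537 CPM in diaphragm (1.10). In diaphragm the same set had less Myc (36.7 against 104 CPM, -1.48), Socs3 (176 against 476 CPM, -1.43) and Zfp36 (255 against 585 CPM, -1.20), and in quadriceps it had more Nr4a1 (105 against 51.7 CPM, 1.01). Called in the Prg4 set of quadriceps were 2 genes higher and 0 lower, beside 1.75% and 3.64% of all genes tested. In diaphragm 1 was higher and 3 were lower, beside 0.672% and 1.31%.

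In the Gdf10 set of quadriceps (58 cells), Gadd45b (60.6 against 26.7 CPM, 1.15), Zfp36 (159 against 72.5 CPM, 1.12) and Ier3 (64.1 against 29.8 CPM, 1.08) were higher, while Klf4 (249 against 588 CPM, -1.23), Klf2 (274 against 639 CPM, -1.22) and Ier5 (29.4 against 60.5 CPM, -1.01) were lower. These 3 higher and 3 lower genes stood beside 3.41% and 3.85% of all genes tested. In diaphragm (229 cells) the same set had 0 listed genes higher and 1 lower, beside 1.1% and 1.52% of all genes. The lower one was Ctgf (297 against 670 CPM, -1.17). The Tnmd set of diaphragm (40 cells) had less Socs3 (105 against 434 CPM, -2.04), Junb (716 against 2113 CPM, -1.56) and Myc (35.7 against 94.6 CPM, -1.38). There 0 listed genes were higher and 3 lower, beside 2.43% and 3.72% of all genes tested. In quadriceps the Tnmd set held only 25 cells, with 1 UMI of Socs3 and 3 of Nr4a1. Of the listed genes 0 were higher and 6 lower there, beside 5.63% and 13.2% of all genes. In the Cxcl14 set (469 and 256 cells) the listed genes past the floor, 24 in quadriceps and 32 in diaphragm, lay within 2-fold of the other FAP-like cells. Of all genes tested in the Cxcl14 set, 3.66% were higher and 3.87% lower in quadriceps, and 1.49% and 2.12% in diaphragm.

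Cells with at least 2 times as many Fbn1 as Lum UMIs were set against those with the reverse, 936 and 1067 cells in quadriceps and 295 and 1311 in diaphragm. In quadriceps 10 genes were lower and 2 higher in the Fbn1 cells, beside 6.1% of all genes in each direction. Btg2 (31.4 against 160 CPM, -2.32), Nr4a1 (26.6 against 99.1 CPM, -1.86) and Sgk1 (33 against 112 CPM, -1.74) were lowest, Fos followed (116 against 388 CPM, -1.73), and Klf4 (842 against 343 CPM, 1.29) and Klf2 (901 against 376 CPM, 1.26) were higher. In diaphragm 4 genes were higher and 1 lower, beside 5.1% and 3.81%, and Klf4 was again higher (959 against 461 CPM, 1.06). The other higher ones were Csrnp1 (1.29), Trib1 (1.13) and Fosl2 (1.07), and Gadd45b was lower (-1.03). With at most 5% mitochondrial UMIs 1 gene was higher, and with a pseudocount of 10 CPM 2 were higher and 0 lower. The summed level differed by log2 -0.25 (-0.26 to -0.23) in quadriceps and by -0.01 (-0.02 to -0.00) in diaphragm.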

How the data were processed

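The authors deposited raw counts of UMIs for each gene in each barcode. Their notes name Cell Ranger 3.0.0 and the mm10 build. Seurat is named in the submitters' notes, but no normalised values were used here. Barcodes with at least 1000 UMIs and no more than 3 scaled MAD above the median on the log10 scale were kept. No mitochondrial limit was applied, since at most 5% mitochondrial UMIs leaves too few smooth muscle-like cells, and that limit was tried as an alternative. A class needed at least 5 of its markers (FAP, smooth muscle, tenocyte) or 3 (others), with at least 50 (FAP, smooth muscle) or 5 marker UMIs per 10000, and barcodes of more than 1 class were left out. No doublet caller was applied, and Scrublet (scanpy 1.11.5) calls were left out as an alternative.

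UMIs of all cells in a class were added up and scaled to CPM, with a pseudocount of 1 CPM. Intervals are 95% exact Poisson for CPM, exact conditional for ratios and exact binomial for shares. Per-cell values were taken after thinning each cell to 1000 UMIs. The fold and interval code was tested on simulated data. The rules on naming took in all 39 genes, the 3 highest per class, the 3 steepest per subset and direction, and the 3 steepest of each other list, and some genes that these rules name are not reported here. Fos in the Fbn1 comparison, and Atf3, Egr1, Egr2, Nr4a2 and the other single values given within classes, were chosen after their values were seen, as were the promoters shown. The 39 members and all lists were chosen with earlier results of these data known. The class scoring rule and the minimum of 20 UMIs were set after seeing the data. Gene positions came from the GENCODE annotation of the same build.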

Additional observations from a re-analysis of the deposited data

Results flagged for a closer look

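For 5 of the listed genes the difference between the tissues, diaphragm against quadriceps as log2 of CPM + 1, was called in one direction in some classes and in the other direction in others. Jun was higher in diaphragm in FAP-like (2.39) and smooth muscle-like cells (2.26) and lower in B-like (-2.48) and T-like cells (-1.25). Btg2 was higher in FAP-like (3.09) and smooth muscle-like cells (2.18) and lower in B-like cells (-1.08). Ppp1r15a was higher in FAP-like (2.08) and smooth muscle-like cells (2.34) and lower in B-like cells (-1.81). Klf2 and Klf6 were higher in smooth muscle-like cells (3.38 and 1.29) and lower in B-like cells (-1.48 and -1.60). The differences between the classes were not tested, and B-like and smooth muscle-like cells of diaphragm each numbered 44.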

How the results depend on the processing

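No paired analysis was possible because each tissue has 1 library, and leaving out a replicate was not possible for the same reason. Of the recomputed summary values, all of them counts of called genes or medians, 130 stayed and 8 moved. A count stayed when it was close to the main count, and a median when it lay within its main interval. Reversal was checked only for single genes called between the tissues in FAP-like cells, and none reversed. At most 5% mitochondrial UMIs gave a median of 23 per 1000 UMIs in diaphragm FAP-like cells, and 1 gene higher in the Fbn1 cells of diaphragm. With a pseudocount of 10 CPM, 2 genes were higher and 0 lower in that comparison. Without mitochondrial UMIs in the total, the quadriceps FAP-like median was 5.22. The stricter class rule gave 2 genes lower in T-like cells. Without 6 genes of resting cells (Btg1, Zfp36l1, Klf2, Rhob, Jund and Sgk1), the FAP-like medians were 3 in quadriceps and 16 in diaphragm. Of the values for single genes, classes and subsets, 836 stayed, 35 moved, 5 became called and 1 was no longer called. The last was Csrnp1, at log2 2.65 with every cell weighed equally. The median of 14 in satellite-like cells was 34 at 5%, and the 17 genes higher in quadriceps B-like cells were 11. No value could be given for 23 results at 5% mitochondrial UMIs and 6 under the stricter rule, where too few cells remained. Counts were low in the smallest classes, where 44 diaphragm B-like cells gave 95 UMIs of Jun, and the spread between animals or libraries was not measured. The minimum of 20 UMIs was left out as an alternative chosen after seeing the data.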
